A study of Mus musculus with 39 samples.

Results

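The unfolded protein and heat shock response was followed through 38 genes, chosen by symbol from the 20520 genes of the deposited table, in tumors of the mouse breast cancer model PB2. All 38 were found, and all 38 passed the filter on low values that left 13650 genes for testing. They fall into 13 endoplasmic reticulum (ER) chaperones and folding enzymes, 3 genes of ER-associated degradation, 3 transcription factors of the unfolded protein response, 5 targets of the factor ATF4, 10 cytosolic heat shock genes, 2 genes of the mitochondrial chaperonin, the heat shock factor Hsf1 and the collagen chaperone Serpinh1. They were matched by symbol, and the list was drawn up with earlier results of these data known.

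The tumors expressed HER2 in its full-length form, FL-HER2, or as p95HER2, which is shortened and misses most of the part outside the cell. They were sampled at day 10 or day 22 from implantation, and each gave a directional library of poly(A) RNA. The 4 groups were FL-HER2 at day 10 (10 libraries) and day 22 (9 libraries) and p95HER2 at day 10 (10 libraries) and day 22 (10 libraries). The labels give no tumor without a HER2 construct, no host strain and no treatment, and nothing says how the tumors relate to litters or cages, so p-values measure the spread between these libraries. Because every comparison is between tumors that carry a construct, no level without HER2 was measured.

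Libraries held 21772259 to 44427621 reads, so 1 CPM, the unit of the filter, stood for at least 21.8 reads. Epithelial markers took a median of 0.226% to 0.274% of reads in the 4 groups, and all 10 were in the table. Neighboring tissue differed far more. Fibroblast markers (12 genes) took 1.03% to 2.92% of reads in FL-HER2 tumors at day 10, 0.156% to 0.432% at day 22, and 0.582% to 1.36% and 0.205% to 0.379% in p95HER2 tumors at day 10 and day 22. Skeletal muscle markers (20 genes) took 0.049% to 3.84% of reads in FL-HER2 tumors at day 10 and 0.0035% to 1.05% in p95HER2 tumors at day 10. No fibroblast or muscle marker was at 0 in every library. Skin markers stood high (a mean log2 value over 6) in 11 libraries. These were in all 4 groups but unevenly, most often in p95HER2 tumors at day 10. The tumor number in a library's name was written with 5 digits for 8 early FL-HER2 tumors and with 3 digits for all other tumors, so that any meaning of this number is nearly tied to 1 group. Values that touch on these facts stand beside the results.

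The genes belong to separate alarm systems for misfolded protein. In the ER, 3 sensors watch the folding capacity: IRE1 splices the mRNA of XBP1, ATF6 is cut to release a transcription factor, and PERK slows translation while favoring that of ATF4. XBP1 and ATF6 raise chaperones such as Hspa5 (BiP) and components of ER-associated degradation, while ATF4, which amino acid shortage also raises, drives Ddit3 (CHOP), Trib3, Chac1 and Asns. In the cytosol, HSF1 is held back by the chaperones it induces and is set free when they are occupied by damaged protein. Much of this control acts on splicing, cleavage and translation, which counts of reads per gene do not measure.

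Promoters were searched for the elements through which these factors are known to act, because the arms of the response are defined by them. The search covered 250 bases before the RefSeq start on both strands (GRCm38.p6, the assembly behind mm10), and 31 of the 38 genes had a window. The ER stress response element (ERSE: the boxes CCAAT and CCACG, 9 bases apart) was present in 7 of 11 ER chaperone genes with a window, against 0.13% of the 27025 genes with a window. The genes were Hspa5, Hsp90b1, Calr, Canx, Pdia6, Dnajc3 and Creld2. Stretches around the element follow for 6 of them, whose printed bases lie before the annotated gene, with the element in capitals, 5′ to 3′ on the strand of the gene; where the capitals start with CGTGG, the element lies on the opposite strand.
Hsp90b1, chr10:86705618-86705676, minus strand: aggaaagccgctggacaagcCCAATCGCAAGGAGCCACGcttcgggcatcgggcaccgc
Hsp90b1, chr10:86705513-86705571, minus strand: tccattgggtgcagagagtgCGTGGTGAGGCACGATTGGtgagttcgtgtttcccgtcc
Calr, chr8:84847055-84847113, minus strand: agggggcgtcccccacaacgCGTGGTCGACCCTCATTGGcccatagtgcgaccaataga
Canx, chr11:50325780-50325838, minus strand: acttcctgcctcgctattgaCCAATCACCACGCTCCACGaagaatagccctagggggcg
Pdia6, chr12:17266471-17266529, plus strand: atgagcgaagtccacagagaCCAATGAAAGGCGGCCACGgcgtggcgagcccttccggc
Dnajc3, chr14:118937807-118937865, plus strand: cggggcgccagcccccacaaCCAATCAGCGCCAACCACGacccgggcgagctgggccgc
Creld2, chr15:88819500-88819558, plus strand: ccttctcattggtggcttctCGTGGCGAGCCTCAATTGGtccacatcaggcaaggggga

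Herpud1, which helps assemble the degradation complex of the ER membrane, carried a different pair of elements. ERSE-II (ATTGG and CCACG, 1 base apart) was in 0.037% of genes. The amino acid response element bound by ATF4 (CARE, TGATGNAA) was in 3.91% of genes, among them Herpud1, Chac1 and Asns, so 2 of the 5 ATF4 targets. The stretches of Herpud1 and Chac1 show the elements in capitals; both CARE matches lie on the opposite strand.
Herpud1 ERSE-II, chr8:94386357-94386407, plus strand: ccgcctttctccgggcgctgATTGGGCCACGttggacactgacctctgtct
Herpud1 CARE, chr8:94386297-94386344, plus strand: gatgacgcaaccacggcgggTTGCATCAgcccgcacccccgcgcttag
Chac1 CARE, chr2:119351029-119351076, plus strand: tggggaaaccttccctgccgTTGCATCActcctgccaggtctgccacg

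The heat shock element (HSE: GAA, TTC and GAA, each 2 bases apart) was in 0.514% of genes and in the window that Hspd1 and Hspe1, which lie head to head, share. It was in 0 of the 7 cytosolic heat shock genes with a window, and the unfolded protein response element (UPRE, TGACGTGG; 0.603% of genes) was in none of the 31. These are matches of letters in a short window. They do not show whether a factor bound there.

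The genes spanned a wide range of levels. Normalized counts, meaning reads divided by the size factor of the library, were compared between genes only per kilobase of exon. The cytosolic chaperones Hsp90ab1 (32150 per kilobase) and Hspa8 (14886) were highest, followed by the ER proteins Calr (9881), Serpinh1 (9810) and Pdia3 (8377), and the lowest were Chac1 (88.3) and Hspa1a (50.2). Together the 38 genes took a median of 1.53% of reads in FL-HER2 tumors at day 10, 1.58% at day 22, and 1.58% and 1.63% in p95HER2 tumors at these days, with overlapping ranges (1.42% to 1.94% over all libraries).

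Spread between tumors of a group varied among the genes. The within-group SD on the log2 scale had a median of 0.154 for ER chaperones, 0.286 for ATF4 targets and 0.262 for cytosolic heat shock genes, against 0.186 for all genes tested, and genes of these roles overlapped in spread. The most variable members were the inducible heat shock genes Hspa1b (0.997), Hspa1a (0.851), Hspb1 (0.656) and Hsph1 (0.422), while Hsp90ab1 (0.096) and Edem1 (0.089) were the steadiest. The heat map of all 39 libraries shows both kinds of variation, between single tumors for the inducible heat shock genes and between groups for Xbp1 and the ATF4 targets.

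**Figure D1:**
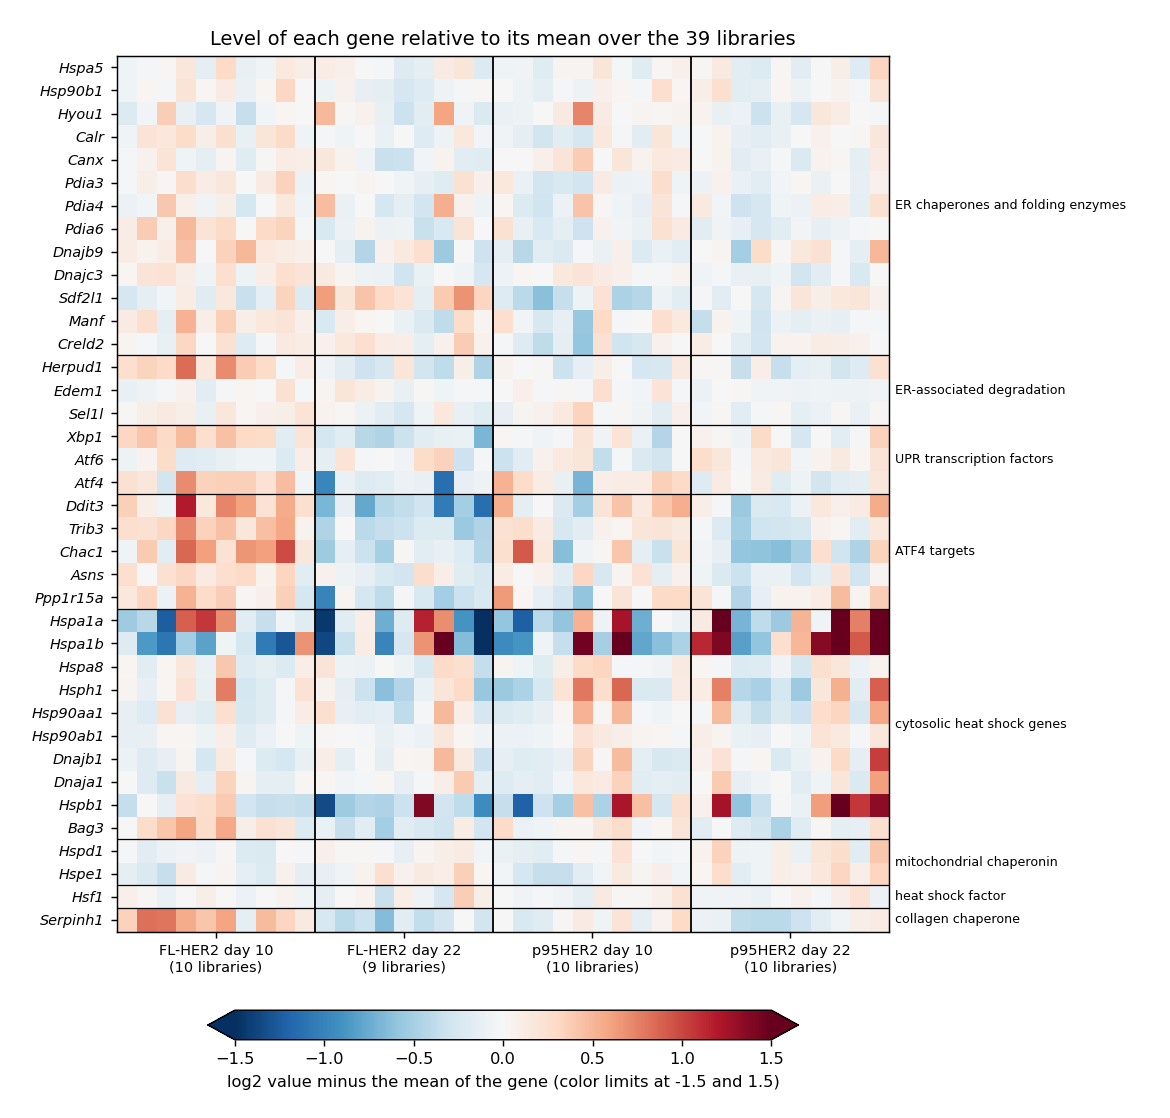
Heat map of the 38 genes (rows, by role) in 39 libraries (columns, by group); color is the log2 value minus the mean of that gene over all libraries. Ddit3, Trib3, Chac1, Xbp1, Herpud1 and Serpinh1 are mostly red in FL-HER2 tumors at day 10 and blue at day 22, while Hspa1a, Hspa1b and Hspb1 change from library to library within every group.

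Differences between groups were tested with limma on the deposited log2 values over all 13650 genes, and the p-values were adjusted after Benjamini and Hochberg, with 0.05 as the threshold for a call. With time in FL-HER2 tumors, 19 of the 38 genes were called, 2 higher and 17 lower, against 51.4% of all genes tested (20.7% higher and 30.6% lower). With time in p95HER2 tumors, 7 were called, 3 higher and 4 lower, against 35.2% of all genes (16.6% higher and 18.6% lower). The share of members called was near the background in FL-HER2 and below it in p95HER2.

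Between the constructs, 9 members were lower and 0 higher in p95HER2 tumors at day 10, against 41.3% of all genes called (15.2% higher and 26.1% lower). At day 22, 2 were higher and 0 lower, against 4.52% of all genes (2.98% higher and 1.54% lower). The test of the difference itself, the p95HER2 effect at day 22 minus that at day 10, called 8 members, all with a higher value, against 19.6% of all genes (13.5% higher and 6.20% lower). The median of the 38 log2 differences was -0.06 at day 10, 0.05 at day 22, -0.15 with time in FL-HER2, -0.01 with time in p95HER2 and 0.11 for the change between days, beside -0.04, -0.01, -0.03, 0.00 and 0.04 for all genes. Comparisons at day 10, with time in FL-HER2 and of the change between days share the FL-HER2 day 10 libraries, so they are not separate evidence.

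**Figure D2:**
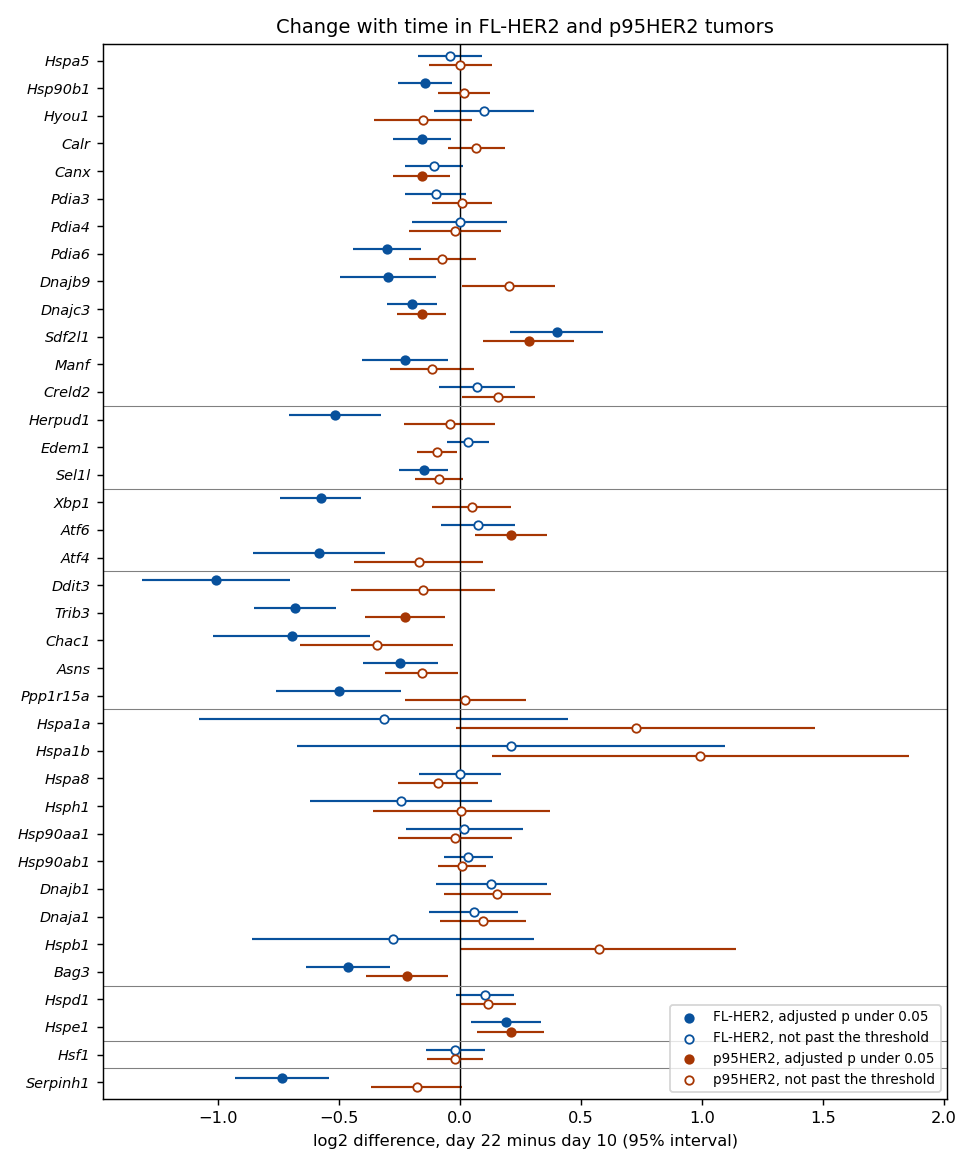
Log2 difference between day 22 and day 10 with its 95% interval for each of the 38 genes, in FL-HER2 tumors (blue) and p95HER2 tumors (brown); filled points are called. The ATF4 targets, Xbp1, Herpud1 and Serpinh1 fall in FL-HER2, and in p95HER2 only Trib3 of these genes is called.

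The 5 ATF4 targets of the module and Atf4 itself fell in FL-HER2 tumors between day 10 and day 22, and in p95HER2 tumors 1 of the 5, Trib3, was called. Fibroblast markers were lower with time in FL-HER2 in 12 of 12 genes, and with their score as a covariate Trib3 alone of these 6 genes kept its call. Of 30 other ATF4 targets, 14 were lower, 2 higher and 14 not called. Ddit3, the pro-apoptotic factor CHOP (chr10:127290774-127296288), ran from 484 to 1154 normalized counts in FL-HER2 tumors at day 10 (median 624) and from 230 to 464 at day 22 (median 355). The groups did not overlap: all 10 early tumors lay above all 9 late ones. Its level fell by 1.01 on the log2 scale (SE 0.15, fold 0.498, adjusted p = 7.96e-07). In p95HER2 tumors Ddit3 ran from 355 to 740 at day 10 (median 568) and from 342 to 744 at day 22 (median 514), ranges that nearly coincide (log2 difference -0.15, 95% interval -0.45 to 0.15, adjusted p = 0.461).

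Trib3, a pseudokinase that restrains AKT and ATF4 signaling (chr2:152337422-152344032), was the other member without overlap in FL-HER2 tumors, where 9.67% of all genes had no overlap. It ran from 1523 to 2423 normalized counts at day 10 (median 1848) and from 998 to 1473 at day 22 (median 1156). The log2 difference was -0.68 (SE 0.08, adjusted p = 1.4e-08), the smallest p of the module. In p95HER2 tumors it ran from 1240 to 1765 (median 1613) and from 1029 to 1637 (median 1297), with a log2 difference of -0.23 (SE 0.08, adjusted p = 0.027). Trib3 was thus lower at day 22 in both constructs, with overlap in p95HER2. The p95HER2 call was lost when p95HER2 day 10 replicate 2 or day 22 replicate 3 was left out (largest adjusted p = 0.0674), and without the skin-high libraries (-0.12, adjusted p = 0.401).

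Chac1, which degrades glutathione, ran from 123 to 271 normalized counts in FL-HER2 tumors at day 10 (median 196) and from 94.9 to 140 at day 22 (median 121). It fell by 0.69 on the log2 scale (SE 0.16, adjusted p = 0.000433) and in p95HER2 had a difference of -0.34 (adjusted p = 0.0865). Ppp1r15a (GADD34), which reverses the translational block, had medians of 779 and 556 in FL-HER2 (log2 difference -0.50, SE 0.13, adjusted p = 0.00129) and 676 and 694 in p95HER2 (0.02, adjusted p = 0.91). Asns, asparagine synthetase, had the smallest change of the 5, from a median of 1453 to 1128 in FL-HER2 (-0.25, SE 0.08, adjusted p = 0.0072) beside 1274 and 1125 in p95HER2 (-0.16, adjusted p = 0.102). Early and late ranges overlapped for all 3 genes. The FL-HER2 call of Asns was kept in 2 of 4 other scalings of the libraries and that of Chac1 in 3 of 4.

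Atf4 mRNA ran from 4458 to 8837 normalized counts in FL-HER2 tumors at day 10 (median 6591) and from 2457 to 5127 at day 22 (median 4959). In the late group 2 of the 9 libraries lay below the lowest early one, and 9 of the 10 early libraries lay above the highest late one. The log2 difference was -0.58 (SE 0.13, adjusted p = 0.000453). In p95HER2 tumors the medians were 5836 and 5000 (log2 difference -0.17, 95% interval -0.44 to 0.10, adjusted p = 0.336).

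Xbp1 (chr11:5520659-5525893) followed the same course. It ran from 6043 to 9464 normalized counts in FL-HER2 tumors at day 10 (median 8330) and from 4226 to 6373 at day 22 (median 5673), a log2 difference of -0.57 (SE 0.08, adjusted p = 2.81e-07). The overlap came from a single early library, FL-HER2 day 10 replicate 9, and the other 9 lay above every late tumor. In p95HER2 tumors Xbp1 ran from 5041 to 7882 (median 6682) and from 5736 to 8689 (median 6790), with a log2 difference of 0.05 (95% interval -0.11 to 0.21). The counts add the spliced and unspliced forms of the mRNA.

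The difference between constructs in these time courses was itself tested. The change was higher in p95HER2 by 0.85 for Ddit3 (SE 0.21, adjusted p = 0.00436), 0.62 for Xbp1 (SE 0.11, adjusted p = 0.000239), 0.52 for Ppp1r15a (SE 0.18, adjusted p = 0.0349) and 0.45 for Trib3 (SE 0.12, adjusted p = 0.00593) on the log2 scale. Atf4 (0.41, 95% interval 0.03 to 0.79, adjusted p = 0.116), Chac1 (0.35, adjusted p = 0.269) and Asns (0.09, adjusted p = 0.584) were not called. For these 3 genes a difference between constructs in the change with time was therefore not shown. The Ppp1r15a call was kept in 30 of 39 fits that left out 1 library and in 1 of 4 other scalings.

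**Figure D3:**
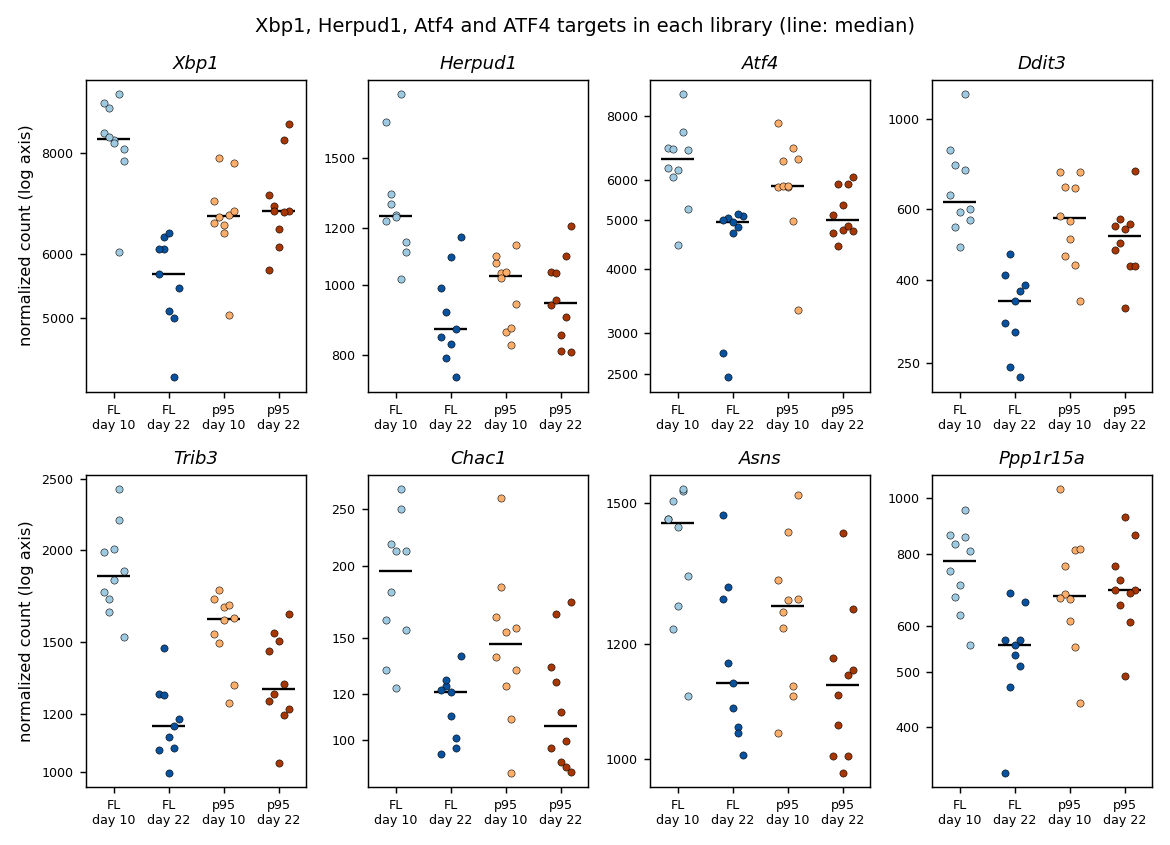
Normalized counts (log axis) of Xbp1, Herpud1, Atf4 and the 5 ATF4 targets in each library, by group, with the median as a line. For Ddit3 and Trib3 all 10 FL-HER2 day 10 libraries lie above all 9 FL-HER2 day 22 libraries, and the p95HER2 groups overlap in every panel.

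The constructs were also compared at each day. At day 10 Xbp1 was lower in p95HER2 (log2 difference -0.31, SE 0.08, adjusted p = 0.00226), with 8 of 10 FL-HER2 libraries above the highest p95HER2 library. At day 22 it was higher in p95HER2 (0.32, SE 0.08, adjusted p = 0.0174), with 8 of 10 p95HER2 libraries above the highest of the 9 FL-HER2 libraries. Ddit3 had a difference of -0.27 at day 10 (adjusted p = 0.144) and was higher in p95HER2 at day 22 by 0.59 (SE 0.15, fold 1.5, adjusted p = 0.0182), with 7 of 10 libraries above the FL-HER2 range. Both day 22 calls were lost when skin-high libraries were left out (Xbp1 0.27, adjusted p = 0.0949; Ddit3 0.56, adjusted p = 0.0908). The Xbp1 call was also lost without FL-HER2 day 22 replicate 9 (adjusted p = 0.0507), and the Ddit3 call without p95HER2 day 22 replicate 10 (adjusted p = 0.0509).

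Plasma cells, whose secretory program depends on XBP1, were looked for beside Xbp1. Their marker Jchain, the joining chain of secreted antibodies, averaged 3.32 normalized counts in FL-HER2 tumors at day 10 and 45.3 at day 22, and 2.57 and 55.9 in p95HER2 tumors. Of the 11 plasma and B cell markers, 3 passed the filter on low values. With time in FL-HER2 and p95HER2, Jchain (2.47 and 3.67, adjusted p = 0.00749 and 0.000158) and the coactivator Pou2af1 (1.52 and 2.28, adjusted p = 1.78e-09 and 7.54e-14) were higher on the log2 scale. Sdc1, which epithelial cells also express, was lower (-0.56 and -0.72, adjusted p = 1.04e-07 and 3.82e-10). Cd79b, a B cell gene under the filter, averaged 30.2 and 18.9 normalized counts in FL-HER2 and 12.2 and 16.9 in p95HER2, and Tnfrsf17, a receptor of plasma cells, averaged at most 0.475 normalized counts in any group. Their part in the Xbp1 level was not tested.

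ER chaperones moved little and not as a block. The main ER chaperone, Hspa5 (BiP), had medians of 27606 and 27835 normalized counts in FL-HER2 tumors at day 10 and day 22, and of 27564 and 27895 in p95HER2 tumors. Its ranges overlapped in all comparisons, and limma on the deposited values called it in none (log2 differences -0.05 to 0.04, with 95% intervals no wider than -0.18 to 0.23). Hyou1, its nucleotide exchange factor, and Pdia4, a disulfide isomerase, were not called in any comparison either. With time in FL-HER2, quantile normalization called Hspa5 higher (0.15, adjusted p = 0.0348) and log2(CPM + 1) called Hyou1 higher (0.22, adjusted p = 0.0496).

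With time in FL-HER2 tumors, 6 of the 13 ER genes were called lower and 1 higher. Pdia6, a disulfide isomerase, had the largest fall. It ran from 10883 to 15477 at day 10 (median 13035) and from 8755 to 12629 at day 22 (median 10412), with overlap and a log2 difference of -0.30 (SE 0.07, adjusted p = 0.000431). The cochaperone Dnajb9 (ERdj4) changed by -0.29 (adjusted p = 0.0117), the growth factor-like ER protein Manf by -0.23 (adjusted p = 0.031), the PERK inhibitor Dnajc3 by -0.20 (adjusted p = 0.00147), the lectin chaperone Calr by -0.16 (adjusted p = 0.026) and the ER HSP90 paralog Hsp90b1 by -0.14 (adjusted p = 0.0264). Of these 6 genes, Pdia6 alone was called under all 4 other scalings of the libraries.

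Sdf2l1, an ER partner of BiP, went the other way. It ran from 1257 to 1984 normalized counts in FL-HER2 tumors at day 10 (median 1438) and from 1440 to 2527 at day 22 (median 1968), higher by 0.40 on the log2 scale (SE 0.10, adjusted p = 0.000609). In p95HER2 tumors it ran from 1026 to 1833 (median 1314) and from 1325 to 1793 (median 1638), higher by 0.28 (SE 0.09, adjusted p = 0.0144). Both pairs of ranges overlapped, and the call held under all 4 other scalings in each construct. Other ER genes called with time in p95HER2 were the lectin chaperone Canx and Dnajc3, with a log2 difference of -0.16 each (adjusted p = 0.0324 and 0.0109). These calls held in 1 of 4 other scalings each, and that of Canx in 13 of 20 fits that left out 1 library. Under log2(CPM + 1) and voom, Calr, Dnajb9 and Creld2 were called higher instead.

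At day 10, 5 of the 13 ER genes were lower in p95HER2 than in FL-HER2 tumors. Dnajb9 had the largest difference: it ran from 498 to 699 normalized counts in p95HER2 (median 598) and from 667 to 937 in FL-HER2 (median 717), -0.33 on the log2 scale (SE 0.10, adjusted p = 0.00497). Pdia6 (-0.24, adjusted p = 0.00386), Creld2 (-0.21, adjusted p = 0.0274), Calr (-0.20, adjusted p = 0.00561) and Pdia3 (-0.16, adjusted p = 0.0357) followed. The calls of Creld2 and Pdia3 held in 0 of 4 other scalings, and in 15 and 12 of 20 fits that left out 1 library. At day 22, 0 of the 13 were called, with 2 at an unadjusted p under 0.05, while voom called 1 of them, Sdf2l1, lower. Dnajb9 was also the ER gene whose p95HER2 effect changed most between days, by 0.50 (SE 0.14, adjusted p = 0.00989). Calr was at the threshold (0.23, adjusted p = 0.0497) and was called in 11 of 39 fits that left out 1 library.

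In ER-associated degradation, Herpud1 differed more than Edem1, which extracts mannose-trimmed clients, and Sel1l, the scaffold of the HRD1 ligase. Herpud1 ran from 1019 to 1841 normalized counts in FL-HER2 tumors at day 10 (median 1248), 744 to 1167 at day 22 (median 868), and 825 to 1137 and 808 to 1207 in p95HER2 tumors (medians 1030 and 945). FL-HER2 at day 10 was the high group, with 7 of 10 libraries above the late range and 8 of 10 above the early p95HER2 range. The log2 difference was -0.51 with time in FL-HER2 (SE 0.09, adjusted p = 2.09e-05), -0.39 between constructs at day 10 (SE 0.09, adjusted p = 0.000749) and 0.47 for the change between days (SE 0.13, adjusted p = 0.0108). Sel1l was lower with time in FL-HER2 by -0.15 (adjusted p = 0.0134), a call that was not kept under any of the 4 other scalings, and Edem1 was not called on the deposited values (-0.09 to 0.05 in the comparisons of groups). Under log2(CPM + 1) and voom, Edem1 was called higher at day 10 (0.11 in both) and with time in FL-HER2 (0.15 in both), and its change between days was called lower (-0.18 in both). Quantile normalization also called it higher with time in FL-HER2 (0.10), and median-of-ratios factors called its change between days lower (-0.16). Without the skin-high libraries the change between days of Herpud1 was 0.39 (adjusted p = 0.108). The window of Herpud1 holds a CARE, as do those of Chac1 and Asns, while those of Ddit3, Trib3 and Ppp1r15a do not. A relation of the element to these differences was not tested.

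Atf6, the ER membrane sensor and transcription factor, was called with time in p95HER2. It had medians of 1777 and 1853 normalized counts in FL-HER2 tumors at day 10 and day 22 (log2 difference 0.08, adjusted p = 0.409) and ran from 1452 to 2121 (median 1748) and 1816 to 2252 (median 2060) in p95HER2 tumors. There it was higher at day 22 by 0.21 (SE 0.07, adjusted p = 0.0229), with overlap; without p95HER2 day 10 replicate 6 the call was lost (adjusted p = 0.0531). The change between constructs was not called (0.13, 95% interval -0.08 to 0.35, adjusted p = 0.383).

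Serpinh1 (HSP47; chr7:99345376-99353239), which folds procollagen and is induced by heat shock, had the largest called difference between constructs at day 10. It ran from 21112 to 41180 normalized counts in FL-HER2 tumors at day 10 (median 31740), 14815 to 23235 at day 22 (median 19217), and 19817 to 28545 and 17559 to 25358 in p95HER2 tumors (medians 23335 and 21195). In FL-HER2, 9 of 10 early libraries lay above the late range. The log2 difference was -0.73 with time in FL-HER2 (SE 0.10, adjusted p = 5.58e-08), -0.42 between constructs at day 10 (SE 0.09, adjusted p = 0.000413) and 0.55 for the change between days (SE 0.13, adjusted p = 0.00364). It was -0.18 with time in p95HER2 (adjusted p = 0.141) and 0.13 between constructs at day 22 (adjusted p = 0.52).

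Markers of fibroblasts, which produce collagen, moved the same way. They were lower with time in 12 of 12 genes in FL-HER2 (median log2 difference -2.31) and 11 of 12 in p95HER2 (-1.03), were lower in p95HER2 at day 10 in 9 of 12 (-1.35), and 8 of 12 had a higher change between days (1.12). Endothelial markers were lower with time in FL-HER2 in 9 of 10 genes (-0.65) and in p95HER2 at day 10 in 7 of 10 (-0.50). With time in p95HER2, 1 was lower and 1 higher (0.19), and 8 of 10 had a higher change between days (0.82). Macrophage markers were lower in 6 of 10 with time in FL-HER2 (-0.47) and in 9 of 10 in p95HER2 at day 10 (-0.68). T cell markers were higher with time in FL-HER2 in 7 of 8 (1.39). The part of these lists was not tested. With the fibroblast score of each library as a covariate, the difference of Serpinh1 with time in FL-HER2 was -0.01 (adjusted p = 0.988), that of Ddit3 was -1.14 (adjusted p = 0.0819) and that of Trib3 was -0.70 (adjusted p = 0.0458). For Xbp1 it was -0.39 (adjusted p = 0.346), for Herpud1 -0.38 (adjusted p = 0.454) and for Bag3 -0.09 (adjusted p = 0.897). The score itself separates the groups, so this fit has wide errors. In whole tumors, fewer cells of a type and less RNA per cell cannot be told apart.

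Across the module, 1 of the 19 calls with time in FL-HER2 was kept with the fibroblast covariate (Trib3), 15 with a muscle covariate and 5 with a term for the digits of the tumor number (Atf4, Ddit3, Trib3, Chac1 and Asns), and all 19 kept their direction in each of these fits. Of the 9 calls between constructs at day 10, 1 was kept with the fibroblast covariate (Dnajb9), 2 with the muscle covariate (Herpud1 and Xbp1) and 0 with the digits term, again with 9 of 9 directions kept. Of the 8 changes between days, 3 (Dnajb9, Xbp1 and Ddit3), 6 and 0 were kept. With the digits term, the level of FL-HER2 at day 10 rests on 2 libraries, replicates 7 and 9, of which replicate 7 is skin-high. The day 10 effect, the difference with time in FL-HER2 and the change between days all rest on these 2 early libraries.

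The scaling of the libraries bears on small shifts. Under quantile normalization, log2(CPM + 1) and voom on the recovered reads, the median of all genes with time in FL-HER2 moved from -0.03 to 0.08, 0.08 and 0.08, and at day 10 it moved from -0.04 to 0.07 under quantile normalization. Members called with time in FL-HER2 were then 7 higher and 11 lower, 8 higher and 10 lower, and 7 higher and 10 lower, and 3 higher and 13 lower with recomputed median-of-ratios factors. In p95HER2 they were 7 higher and 1 lower under quantile normalization and 8 higher and 0 lower under log2(CPM + 1) and voom. Between constructs at day 10 they were 2 higher and 7 lower under quantile normalization and 3 higher and 7 lower under the other 2.

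For the change between days they were 7 higher and 1 lower with median-of-ratios factors and 6 higher and 1 lower under the other 3 scalings. At day 22 they were 3 higher and 0 lower under quantile normalization and 2 higher and 1 lower under log2(CPM + 1) and voom. Calls that held under all 4 scalings with time in FL-HER2 were 11: Pdia6, Herpud1, Xbp1, Atf4, Ddit3, Trib3, Ppp1r15a, Bag3 and Serpinh1 lower, and Sdf2l1 and Hspe1 higher. In p95HER2 these were Sdf2l1, Atf6 and Hspe1, all higher. At day 10 they were Calr, Pdia6, Dnajb9, Herpud1, Xbp1, Trib3 and Serpinh1, at day 22 Xbp1 and Ddit3, and for the change between days Dnajb9, Herpud1, Xbp1, Ddit3, Trib3 and Serpinh1.

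Few cytosolic heat shock genes were called between groups. At day 10, 0 of 10 were called between constructs (0 at an unadjusted p under 0.05; voom called 1 higher), and at day 22 0 of 10 (3 unadjusted; voom 0). For the change between days 0 of 10 were called as well (2 unadjusted, voom 0). Other settings called some: quantile normalization called Hspa8 and Hsp90ab1 higher at day 10 and Hspa8 lower for the change between days. Fits with library weights called Hspa1b and Hspb1 higher at day 22. On the deposited values the member called with time was Bag3, the HSP70 cochaperone of selective autophagy, in FL-HER2 (log2 difference -0.46, SE 0.09, adjusted p = 2.55e-05) and in p95HER2 (-0.22, SE 0.08, adjusted p = 0.0408). Bag3 had medians of 2927 and 2094 normalized counts in FL-HER2 tumors and of 2535 and 2222 in p95HER2 tumors. The p95HER2 call held in 9 of 20 fits that left out 1 library and in 1 of 4 other scalings. Voom called 1 higher (Hsp90ab1, 0.15) and 1 lower (Bag3) with time in FL-HER2, and 1 higher (Hspa1b, 1.05) with time in p95HER2. Quantile normalization called Hspa8 and Hsp90ab1 higher with time in FL-HER2 and Hsp90ab1 higher with time in p95HER2. Library weights called Hspa1a and Hspa1b higher with time in p95HER2.

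Inducible HSP70 varied most between single tumors. Hspa1b (chr17:34956436-34959238) ran from 756 to 2948 normalized counts in FL-HER2 tumors at day 10 (median 1167), from 557 to 5264 at day 22 (median 1459), from 946 to 9957 in p95HER2 tumors at day 10 (median 1316) and from 1049 to 15752 at day 22 (median 3758). Over all 39 libraries the highest and the lowest level differed 28.3-fold. The highest values were 15752 in p95HER2 day 22 replicate 10 and 9957 in p95HER2 day 10 replicate 7, and 2 of the 10 p95HER2 day 22 libraries lay above the range of the 9 FL-HER2 day 22 libraries. The difference between constructs at day 22 was 1.26 on the log2 scale, with a 95% interval from 0.37 to 2.14, and was not called (adjusted p = 0.0922). Without the skin-high libraries it was 1.64 (adjusted p = 0.00598). With time in p95HER2 the difference was 0.99 (adjusted p = 0.0663), and 1.24 without the skin-high libraries (adjusted p = 0.0143).

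Hspb1 (HSP27) and Hspa1a, both stress inducible, had the same pattern at day 22. Hspb1 ran from 1672 to 11034 in FL-HER2 (median 3101) and from 2807 to 13883 in p95HER2 (median 5474), a log2 difference of 0.87 (95% interval 0.29 to 1.45, adjusted p = 0.0738). It was called in 2 of 19 limma fits that left out 1 library (smallest adjusted p = 0.00871). These left out FL-HER2 day 22 replicate 6 or p95HER2 day 22 replicate 3. Hspb1 was also called with library weights and with the muscle covariate. Hspa1a ran from 38.8 to 272 and from 74.5 to 539 (0.88, 95% interval 0.12 to 1.64, adjusted p = 0.195). Hspa1a and Hspa1b are near-identical copies, so how reads were divided between them is uncertain. Hspa8, the constitutive HSP70, and Hsp90ab1, the constitutive HSP90, stayed within 49693 to 83891 and 85037 to 111505 normalized counts in all libraries. The inducible HSP90 Hsp90aa1 and the HSP40 Dnaja1 had group medians of 14369 to 15593 and 5495 to 5978 normalized counts, and limma on the deposited values called neither in any comparison.

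**Figure D4:**
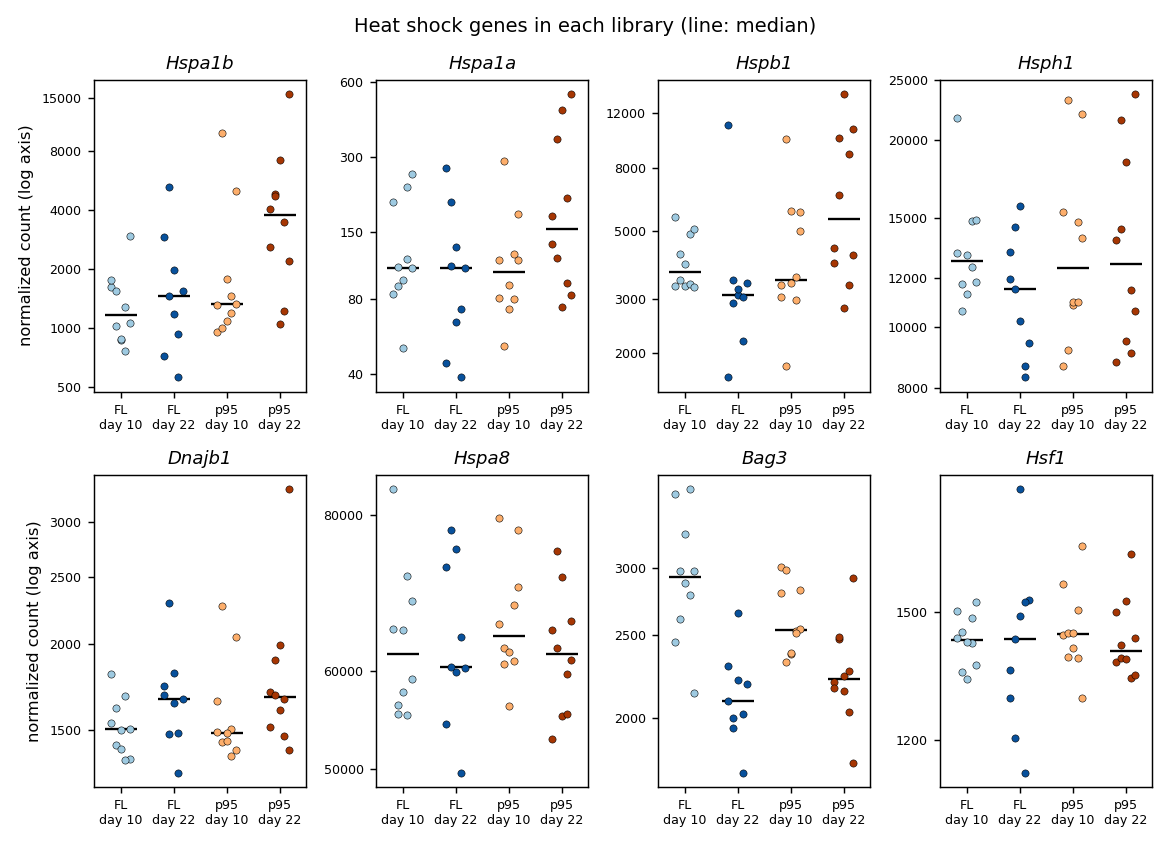
Normalized counts (log axis) of 8 heat shock genes in each library, by group, with the median as a line. Hspa1b spans 557 to 15752 and is highest in p95HER2 day 22 replicate 10, groups overlap in every panel, and Hsf1 stays within 1135 to 1856.

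Heat shock genes varied together from tumor to tumor. Deviations of each library from its group mean were correlated over the 39 libraries for 28 pairs of genes, with Hspa1b, Ddit3 and Hspa5 as references chosen after the values were seen, and p-values came from 100000 permutations within groups (the smallest they can give is 1e-05). All values of a library share its size factor. Hspa1b was correlated with the HSP40 Dnajb1 (Pearson r = 0.779, Spearman rho = 0.683, permutation p = 1e-05 for each, adjusted p = 6e-05 for r) and with the HSP110 Hsph1 (r = 0.745, rho = 0.708, permutation p = 1e-05 and 2e-05, adjusted p = 6e-05). Without the 2 libraries farthest from the median of Hspa1b, r was 0.682 and 0.656.

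The other cytosolic genes had r from 0.385 (Hspa8; 0.474 without the 2 libraries) to 0.777 (Hspa1a; 0.717). Bag3 stood out with r = 0.194 (rho = 0.253, permutation p = 0.22 and 0.12, adjusted p = 0.23) and -0.011 without the 2 libraries. Within single groups r for Bag3 ranged from -0.425 to 0.759. The mitochondrial chaperonin gene Hspd1 had r = 0.622 (rho = 0.554, permutation p = 1e-04 and 0.00072, adjusted p = 0.00026), and 0.463 without the 2 libraries. Its partner Hspe1 had r = 0.387 (rho = 0.317, permutation p = 0.022 and 0.06, adjusted p = 0.027) and 0.246 without them. Over all libraries, tumors high in Hspa1b were thus also high in other chaperones of the cytosol, a relation not shown for Bag3. Single groups differed for other genes too. The lowest r in any group was 0.541 for Dnajb1, 0.422 for Hsph1 and 0.243 for Hsp90aa1. It was 0.17 for Hspa1a, 0.148 for Hspa8, 0.127 for Dnaja1, -0.023 for Hspb1 and -0.07 for Hsp90ab1.

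The ATF4 targets were compared in the same way, by deviations from the group means. The lowest r with Ddit3 in any group was 0.453 for Trib3, 0.412 for Ppp1r15a, 0.133 for Chac1, 0.026 for Atf4 and -0.215 for Asns. Ddit3 was correlated with Ppp1r15a (r = 0.693, rho = 0.69, permutation p = 1e-05 for each, adjusted p = 6e-05; 0.633 without the 2 farthest libraries) and with Trib3 (r = 0.648, rho = 0.592, permutation p = 3e-05 and 1e-04, adjusted p = 1e-04; 0.566 without them). With Atf4 r was 0.595 (rho = 0.555, permutation p = 1e-04 and 0.0004, adjusted p = 0.00026; 0.477), with Chac1 0.423 (rho = 0.431, permutation p = 0.0099 and 0.0084, adjusted p = 0.013; 0.383) and with Asns 0.211 (rho = 0.245, permutation p = 0.22 and 0.15, adjusted p = 0.23; 0.296). Asns, the target with the smallest change with time in FL-HER2, was also the least linked to Ddit3.

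Hspa5 was paired only with the other ER chaperones and folding enzymes of the module. Among them its highest correlation was with Dnajc3 (r = 0.723, rho = 0.743, permutation p = 1e-05 for each, adjusted p = 6e-05; 0.717 without the 2 farthest libraries), and r fell to 0.201 for Dnajb9 (rho = 0.17, permutation p = 0.27 and 0.33, adjusted p = 0.27; 0.022). Pairs of an ER chaperone and a cytosolic heat shock gene, described without a test, had r from -0.274 to 0.774 (median 0.225). Pdia6 (r = 0.294, adjusted p = 0.073) and Manf (r = 0.285, adjusted p = 0.078) were also weakly linked to Hspa5. Within single groups r ranged from 0.568 to 0.822 for Dnajc3 and from -0.279 to 0.5 for Dnajb9.

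**Figure D5:**
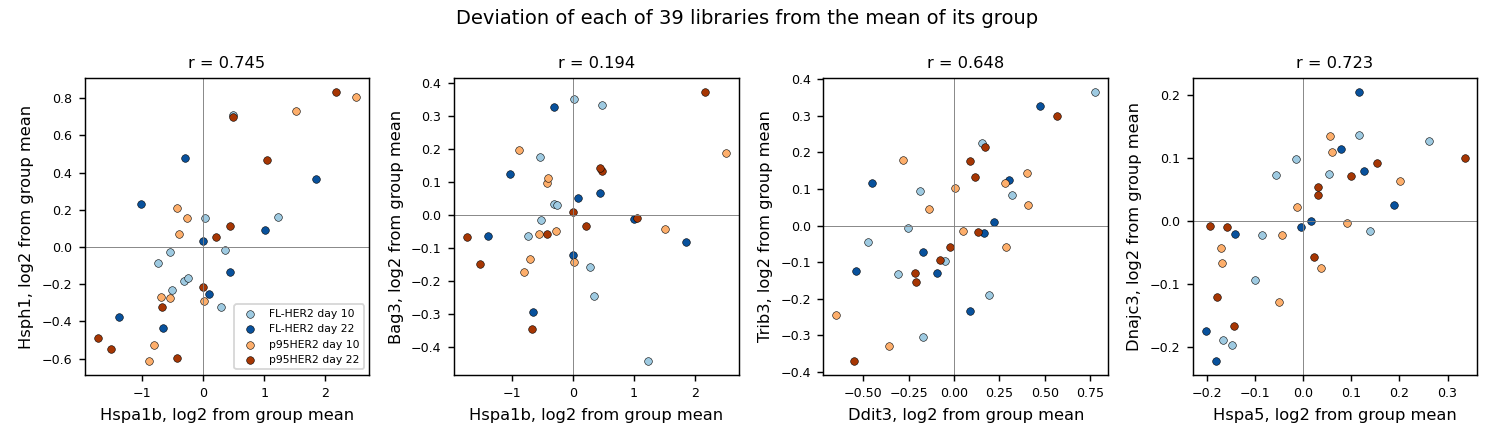
Log2 deviation of each of the 39 libraries from its group mean for 4 pairs of genes, colored by group, with Pearson's r over all libraries above each panel. Hspa1b and Hsph1 (0.745), Ddit3 and Trib3 (0.648) and Hspa5 and Dnajc3 (0.723) vary together, and for Hspa1b and Bag3 (0.194) a relation was not shown.

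Of the mitochondrial chaperonin genes, Hspe1 was called with time and Hspd1 was not. Hspe1 (HSP10) ran from 4669 to 6469 normalized counts in FL-HER2 tumors at day 10 (median 5412) and from 5474 to 7621 at day 22 (median 6218), and from 4673 to 6556 (median 5774) and 5326 to 7472 (median 6384) in p95HER2 tumors. All ranges overlapped. It was higher at day 22 by 0.19 in FL-HER2 (SE 0.07, adjusted p = 0.0239) and 0.21 in p95HER2 (SE 0.07, adjusted p = 0.0159). Its partner Hspd1 (HSP60), with which it shares the window that holds the HSE, had differences of 0.10 and 0.12 that were not called on the deposited values (adjusted p = 0.139 and 0.108). With time in FL-HER2 it was called higher under all 4 other scalings (0.14 to 0.22), and in p95HER2 under quantile normalization, log2(CPM + 1) and voom (0.18 to 0.20). The FL-HER2 call of Hspe1 was lost without FL-HER2 day 10 replicate 3 or day 22 replicate 4 or 8 (largest adjusted p = 0.0624). Exons of the 2 genes overlap on opposite strands, so without the strand setting their reads cannot be told apart there.

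Hsf1, which encodes the heat shock factor, had medians of 1428, 1430, 1443 and 1401 normalized counts in FL-HER2 tumors at day 10 and day 22 and p95HER2 tumors at day 10 and day 22. No comparison was called, 0 had an unadjusted p under 0.05, and the differences were small (log2 differences -0.02 to 0.02, with 95% intervals within -0.14 to 0.14 between groups).

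Other genes of the same pathways are given by list, beside 30.6% of all genes lower and 20.7% higher with time in FL-HER2. With time in p95HER2 the background was 18.6% lower and 16.6% higher, and for the change between days 6.20% lower and 13.5% higher. Of 30 other ATF4 targets tested, 14 were lower and 2 higher with time, led by the transcription factor Atf5 (-1.02, adjusted p = 7.31e-12), the stress factor Nupr1 (-1.63, adjusted p = 1.95e-08) and the translation repressor Eif4ebp1 (-0.67, adjusted p = 3.64e-07). In p95HER2 10 were lower and 5 higher. Atf5 (0.65, adjusted p = 0.000412), Atf3 (0.98, adjusted p = 0.0178) and Nupr1 (0.91, adjusted p = 0.0214) had a higher change between days, as did 5 of the 30 in all against 1 lower.

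Of 25 other ER folding genes, 13 were lower and 2 higher with time in FL-HER2, led by the BiP exchange factor Sil1 (-0.52, adjusted p = 1.95e-08), Fkbp11 (-0.56, adjusted p = 1.41e-05) and the oligosaccharyltransferase subunit Stt3a (-0.22, adjusted p = 5.72e-05). In p95HER2 4 were lower and 2 higher. Of 13 other degradation genes tested, 6 were lower and 1 higher in FL-HER2, among them the ubiquitin-conjugating enzyme Ube2g2 (-0.33, adjusted p = 1.27e-05) and the lectin Os9 (-0.30, adjusted p = 2e-05). Among 12 sensors and other factors of the response, 3 were lower and 2 higher, led by Creb3l1 (-1.76, adjusted p = 2.81e-11), a relative of ATF6 known to act on collagen genes.

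Of 33 other heat shock and cochaperone genes, 9 were lower and 4 higher with time in FL-HER2, led by Dnajb4 (-0.81, adjusted p = 6.64e-07), the small heat shock protein Hspb8 (-1.53, adjusted p = 5.09e-06) and Dnaja4 (-0.59, adjusted p = 2.59e-05). At day 10, 9 were lower and 5 higher in p95HER2, shares near the 26.1% lower and 15.2% higher of all genes. Among those lower were Hspb8 (-1.27, adjusted p = 0.000106) and the small heat shock protein Cryab (-1.38, adjusted p = 0.000491). Hspb8 and Cryab are also abundant in skeletal muscle, whose 20 markers were all lower in p95HER2 at day 10 (median -4.45), 7 of them lower with time in FL-HER2; the part of muscle in these 2 genes was not tested. Of 8 genes of mitochondrial protein quality control, 3 were lower and 1 higher with time in FL-HER2, led by the protease subunit Clpx (-0.25, adjusted p = 9.25e-05). The shares of these lists called with time in FL-HER2 lie on both sides of the background given above for that comparison.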

How the data were processed

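The authors deposited 1 table with 39 libraries as columns and 20520 genes. Although named for CPM, its deposited values are on a log2 scale, as the values show: log2(read count divided by a size factor, plus 1): 100% of values gave whole reads (tolerance 0.001 reads). Per the submitters' processing notes, STAR 2.4.2a, DESeq2 and the build mm10 were involved. How reads were counted (annotation, strand, filters) is not given in the sources used here. Exons of 9 members (Ddit3, Dnaja1, Hspa1a, Hspd1, Hspe1, Manf, Pdia3, Pdia6 and Ppp1r15a) overlap another protein-coding gene on the opposite strand, so their levels are uncertain without the strand setting. Exons of Manf also overlap Rbm15b on the same strand, which the strand setting would not resolve. Groups came from the labels; replicate numbers follow record order and are names only. The tumor number of FL-HER2 day 10 replicate 8 differs between its title and its description. Genes with at least 1 CPM (from recovered reads) in at least 9 libraries were tested with limma 3.58.1 (moderated with a trend on mean level, two-sided, 1 coefficient per group) in R 4.3.3, in 5 comparisons, and adjusted over all 13650 genes. The test was checked on simulated data. SEs and 95% intervals are those of this fit. Counting error was not estimated separately, and relative to the level it weighs most on genes of low counts such as Chac1 and Hspa1a. Lengths are exon unions of GENCODE M21. All 38 members are named, and of each pathway list at most 3 called genes with the smallest adjusted p per comparison; 1 such gene is not reported here. Members and lists were chosen with earlier results of these data known. Alternatives were other pseudocounts (0.1 and 5), filters, scalings, covariates, library weights and left-out libraries.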

Additional observations from a re-analysis of the deposited data

Results flagged for a closer look

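In 8 genes the p95HER2 effect differed between day 10 and day 22 by the test of that difference (log2): Calr 0.23 (adjusted p = 0.0497), Dnajb9 0.50, Herpud1 0.47, Xbp1 0.62, Ddit3 0.85, Trib3 0.45, Ppp1r15a 0.52 and Serpinh1 0.55. All 8 differences were positive.

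In 11 of 152 groups of values a single library stood far from the others of its group, and chance gives such a library in about 1 of 20 groups. The genes share the same libraries, so the groups are not independent. Whether these 11 exceed chance was not tested. In p95HER2 day 10 replicate 5, Hyou1 (log2 value 13.786, next 13.19) and Canx (14.403, next 14.22) were highest and Atf4 (11.701, next 12.28) was lowest. In FL-HER2 day 10, Hyou1 was highest in replicate 3 (13.425, next 13.08), Hsph1 was highest in replicate 6 (14.406, next 13.86) and Xbp1 was lowest in replicate 9 (12.561, next 12.93). Xbp1 was also lowest in p95HER2 day 10 replicate 9 (12.300, next 12.64), and Hspd1 was highest in p95HER2 day 10 replicate 7 (14.362, next 14.18). At day 22, Dnajb1 was highest in p95HER2 replicate 10 (11.709, next 10.96), Dnaja1 in FL-HER2 replicate 8 (12.961, next 12.67) and Hspb1 in FL-HER2 replicate 6 (13.430, next 11.75).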

How the results depend on the processing

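Members called were 9, 2, 19, 7 and 8 (constructs at day 10, constructs at day 22, time in FL-HER2, time in p95HER2, change between days). Library weights gave 6 at day 22 and 11 with time in p95HER2. The muscle covariate gave 2 at day 10 and 4 at day 22, and the fibroblast covariate gave 1, 4, 1, 1 and 3. The digits term gave 0 at day 10, 5 with time in FL-HER2 and 0 for the change between days; without skin-high libraries 1 was called at day 22 and 4 with time in p95HER2. Leaving out each library gave 7 to 11, 1 to 5, 16 to 19, 5 to 8 and 6 to 9. The day 22 count was 4 without FL-HER2 day 22 replicate 2 or 6, 1 without replicate 9, 5 without p95HER2 day 22 replicate 3 and 1 without replicate 10. Under quantile normalization, differences with time in FL-HER2 turned positive for Hspa5 (0.15, called at adjusted p = 0.0348), Hsp90b1 (0.0276), Calr (0.0434) and Hspa8 (0.36, called at adjusted p = 8.67e-05). The causes were not tested. No paired analysis was possible because the replicate numbers follow record order.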
